A study of Homo sapiens with 36 samples.

Results

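Desmosome genes were followed across all 36 RNA-seq libraries of the series. The 10 members were taken by name (DSG2, DSG3, DSC2, DSC3, DSP, JUP, PKP1, PKP2, PKP3 and PERP), out of 60725 genes in each table. Each gene had an estimated read count and a TPM level, which is scaled for gene length and library size and is used here to compare levels between genes. The libraries came from established human cell lines and fell into 18 groups of 2.

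ER-Src cells are MCF-10A cells, a non-transformed breast epithelial line, that carry v-Src, an oncogenic kinase, joined to the part of the estrogen receptor that binds hormone. They were non-transformed in ethanol (ETH) or transformed in tamoxifen (TAM), which activates v-Src. The labels list AZD0530, known as an inhibitor of Src-family kinases, beside tamoxifen for inducing transformation, and do not give the treatment time of the RNA samples. Under each treatment the cells received a control siRNA (Ctrli) or siRNA against YAP (YAPi), TAZ (TAZi), STAT3 (STAT3i) or JUNB (JUNBi). The other cells were MDA-MB-231, a triple-negative breast cancer line whose libraries the titles place in a set 1 (Ctrli, YAPi, TAZi, both together as YAPi_TAZi, and TEADi against TEAD factors) and a set 2 (Ctrli, JUNBi and STAT3i). The siRNAs were pools of oligonucleotides. Nothing in the labels says that replicates came from separate cultures, so the p-values measure only the spread between these libraries.

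Desmosomes are adhesive junctions that tie the keratin filaments of neighbouring epithelial cells together. Desmogleins (DSG) and desmocollins (DSC) are cadherins that span the membrane and bind across the gap. Inside the cell the armadillo proteins plakoglobin (JUP) and the plakophilins (PKP) link the cadherin tails to desmoplakin (DSP), which holds the keratins. PERP is a small membrane protein that supports desmosome assembly in stratified epithelia and is known as a p53 target. YAP and TAZ are co-activators that bind DNA through partners such as TEAD proteins, and AP-1 proteins, which include JUNB, and STAT3 bind DNA directly.

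The promoters of 8 of the 10 members were matched in RefSeq (GRCh38.p14), each as a window from 250 bases before to 50 after an annotated start. PKP2 and PKP3 had no window. The windows of PERP, DSC2 and DSG3 are printed because these 3 genes had the largest log2 fold changes of the tested members in YAPi under both treatments. Of the 2 windows of DSC2, the one with a motif match is shown. Lower case is plain sequence and capitals mark a match to a searched motif, either AP-1 (TGANTCA), TEAD (GGAATG) or STAT (TTCNNNGAA), on either strand.
PERP, chr6:138107370-138107669, minus strand: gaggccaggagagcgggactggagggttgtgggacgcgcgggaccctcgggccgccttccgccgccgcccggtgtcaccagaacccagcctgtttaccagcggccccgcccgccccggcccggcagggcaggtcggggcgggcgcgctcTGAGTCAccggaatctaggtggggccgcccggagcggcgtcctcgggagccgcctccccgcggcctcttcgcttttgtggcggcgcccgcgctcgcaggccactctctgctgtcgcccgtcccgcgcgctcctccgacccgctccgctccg
DSC2, chr18:31101211-31101510, minus strand: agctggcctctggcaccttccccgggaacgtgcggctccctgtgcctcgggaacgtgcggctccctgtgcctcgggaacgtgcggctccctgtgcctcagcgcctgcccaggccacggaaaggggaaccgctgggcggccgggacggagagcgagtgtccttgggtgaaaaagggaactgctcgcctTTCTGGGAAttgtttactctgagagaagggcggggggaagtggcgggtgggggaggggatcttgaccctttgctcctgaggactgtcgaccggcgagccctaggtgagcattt
DSG3, chr18:31447491-31447790, plus strand: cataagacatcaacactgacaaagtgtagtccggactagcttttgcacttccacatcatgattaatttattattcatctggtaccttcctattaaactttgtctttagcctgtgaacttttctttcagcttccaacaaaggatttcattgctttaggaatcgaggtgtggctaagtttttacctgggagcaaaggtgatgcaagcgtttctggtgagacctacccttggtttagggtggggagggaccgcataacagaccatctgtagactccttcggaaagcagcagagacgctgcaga

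The PERP window held 1 AP-1 match and this DSC2 window 1 STAT match, and the DSG3 window held none. None of the 10 member windows, which include a second window each for DSC2 and JUP, had a TEAD match, and the other 8 windows held no match to any of the 3 motifs. Over all 35116 promoter windows, 7.71% held the AP-1 letters, 14% the TEAD letters and 7.66% the STAT letters. G and C made up 44% of the DSG3 window and 77% of the PERP and DSP windows. These matches describe letters in a window and not sites of binding.

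Depth ran from 6419720 to 19161700 counts per ER-Src library and from 7290499 to 18076158 in set 2. In set 1 the controls held 13456784 and 13534560 counts and the 8 knockdown libraries 1411304 to 2784605. RNAs without a poly(A) tail took 9.43% to 11.7% of counts in ER-Src libraries and 8.71% to 11.8% in set 1 knockdowns, but at most 0.00407% in set 1 controls and 0.0112% in set 2. In set 1, knockdown and library type therefore cannot be told apart. The gap between a gene's length and its effective length was 49 bases in STAT3i and JUNBi libraries of ER-Src cells and 49.5 bases in the others. In set 1 it was 75 bases in both controls, 48 in replicate 1 of every knockdown and 74.56 to 74.57 in replicate 2, so no control shares the value of either kind of knockdown library. The basal markers KRT5 (1802 TPM) and TP63 (4.22 TPM) were present in Ctrli ETH cells. The mesenchymal marker VIM was at 2557 and 1001 TPM in the MDA-MB-231 controls of sets 1 and 2, with KRT5 listed at 0. Other basal markers were present there. The 7 basal markers summed to 147 and 164 TPM in set 1 controls and to 126 and 154 TPM in set 2 controls. CDH3 and TP63 were also at 0 in set 2 controls. In Ctrli ETH the basal markers summed to 2420 and 2460 TPM. The leukocyte genes PTPRC and CD3E were listed at 0 in the controls of both lines. The 3 leukocyte markers, which also include CD14, summed to 7.51 and 5.79 TPM in Ctrli ETH. In set 1 controls they summed to 6.12 and 5.54 TPM, and in set 2 controls to 3.08 and 3.73 TPM. The 4 fibroblast markers summed to 61.8 and 59.0 TPM in Ctrli ETH.

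ER-Src cells had RNA of 9 of the 10 desmosome genes. In Ctrli ETH cells PKP3, a plakophilin of most epithelia, was highest at 34.5 ± 0.92 TPM (SD, n = 2), followed by PERP at 28.5 ± 1.6 and DSP at 21.1 ± 1.8 TPM. JUP (15.7 ± 0.57 TPM) and DSG2 (15.6 ± 3.2 TPM), a desmoglein found in simple as well as stratified epithelia, came next, and these neighbours overlapped. DSG3, the desmoglein of basal layers, stood at 12.5 ± 0.78 TPM, PKP2 at 9.79 ± 1.0, DSC3 at 5.66 ± 0.54 and DSC2 at 2.50 ± 0.45 TPM. PKP1, a plakophilin of the suprabasal layers of skin, had 0 counts in all 4 Ctrli libraries. The other neighbours in this order did not overlap.

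In GRCh38 the 4 cadherin genes lie together on chromosome 18, with DSC3 at chr18:30989365-31042815 and DSC2 at chr18:31058840-31102522 on the minus strand, and DSG3 at chr18:31447741-31478702 and DSG2 at chr18:31498177-31549008 on the plus strand. DSP (chr6:7541338-7586714, plus) and PERP (chr6:138088505-138107419, minus) are far apart on chromosome 6. JUP lies at chr17:41754604-41786931 (minus), PKP1 at chr1:201283452-201332993 (plus), PKP2 at chr12:32790745-32896798 (minus) and PKP3 at chr11:392614-404908 (plus). Counts were taken over whole genes. DSG2, DSC2 and DSP each overlap an antisense long non-coding RNA gene and PKP2 overlaps a long non-coding RNA gene on its own strand and a pseudogene, and whether reads were assigned by strand is not given in the sources used here. A share of reads from such overlaps cannot be told apart.

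**Figure D1:**
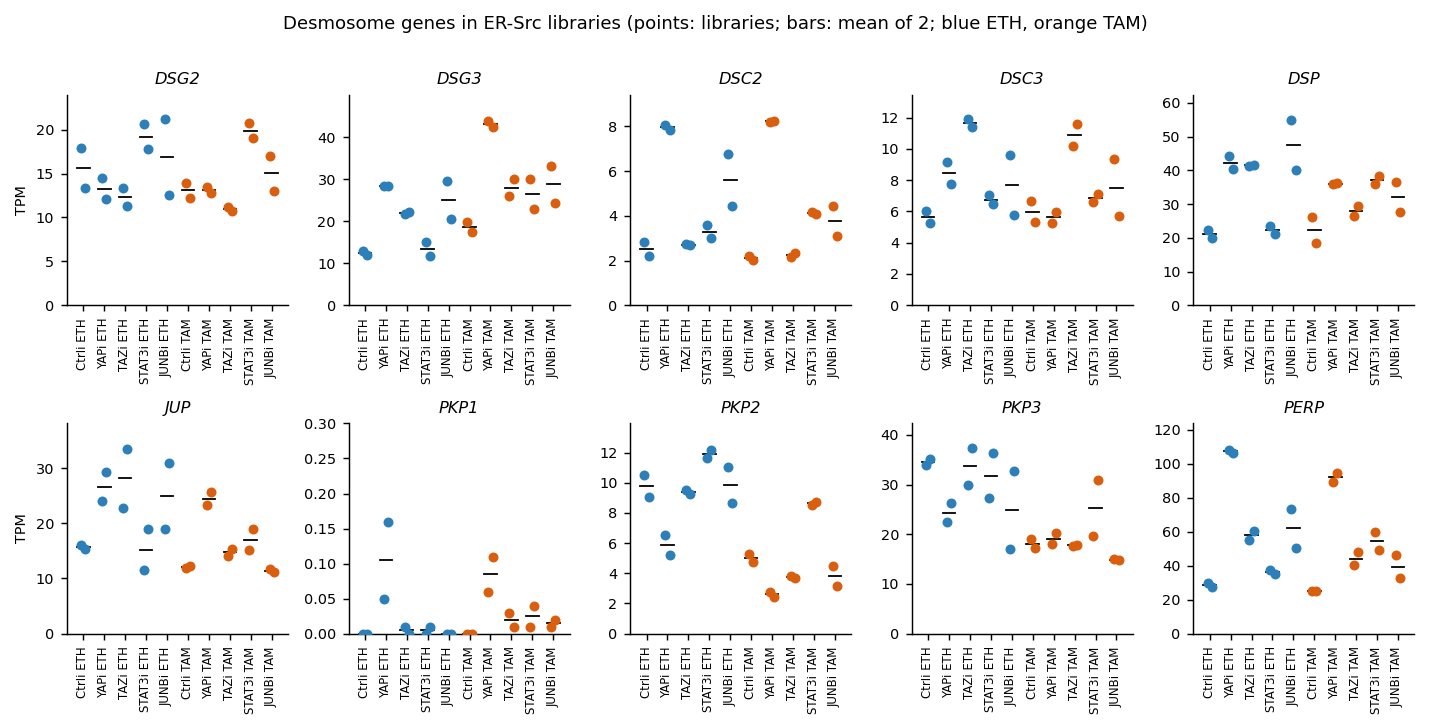
TPM (vertical axis, linear, from 0) of each desmosome gene in the 20 ER-Src libraries, by siRNA and treatment. Points are libraries, black bars the mean of 2, blue ETH and orange TAM. PERP and DSC2 stand highest in both YAPi groups, and PKP1 does not exceed 0.16 TPM.

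Transformation came with 1 desmosome gene called higher and 1 called lower. Between Ctrli TAM and Ctrli ETH cells, 2 of the 9 members tested were called (DESeq2, adjusted p under 0.01), 1 higher and 1 lower, where 6.11% of all 15934 genes tested were called, 4.56% higher and 1.56% lower. DSG3 went from 13.0 and 11.9 TPM in ETH to 19.7 and 17.4 TPM in TAM, with no overlap. Its counts were 1.70-fold higher (log2 fold change 0.76, SE 0.11, adjusted p 3.3e-10). PKP2, which links cadherins to desmoplakin and is widely expressed, went from 10.5 and 9.07 TPM down to 5.30 and 4.73 TPM. It fell by 0.81 on the log2 scale (SE 0.17, adjusted p 4.5e-05), but leaving out any 1 of the 4 libraries removed the call (estimates from -0.87 to -0.77, adjusted p from 0.02 to 0.12).

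Estimates for DSG2, DSC2, JUP and PERP lay between -0.06 and 0.00, and their normalized counts overlapped. In TPM, JUP (16.1 and 15.3 in ETH, 11.9 and 12.3 in TAM) and PERP (29.6 and 27.4 in ETH, 24.8 and 25.1 in TAM) were lower in TAM without overlap. DSP moved by 0.29 (95% interval 0.04 to 0.53, adjusted p 0.19) and DSC3 by 0.27 (-0.04 to 0.59, adjusted p 0.44). PKP3 depended on the scale of measurement. Its level was 33.9 and 35.2 TPM in ETH and 19.0 and 17.3 TPM in TAM, with no overlap, while its counts moved by -0.20 (SE 0.15, adjusted p 0.63). The effective length that divides the counts was 1549 and 1465 bases in ETH and 1977 and 2435 bases in TAM. With the effective lengths as offsets the estimate was -0.66 (adjusted p 0.00066).

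Depletion of YAP raised most of the desmosome genes in both states. YAP1 itself fell by 2.49 on the log2 scale under TAM and fell by 2.38 under ETH. Under TAM, 6 of 9 members tested were called, against 10.9% of all genes tested, with 5 higher, against 5.4%, and 1 lower, against 5.54%. Under ETH, 7 of 9 were called against 11.4%, with 6 higher against 5.03% and 1 lower against 6.36%. The median over the 9 tested members under TAM was 0.66, beside 0.01 over all genes tested. All knockdowns of a treatment share the same 2 Ctrli libraries.

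Among the cadherins, DSC2 had the largest estimate. It stood at 2.20 and 2.02 TPM in Ctrli TAM and at 8.20 and 8.23 TPM in YAPi TAM. Counts were 3.86-fold higher (log2 fold change 1.95, SE 0.17, adjusted p 3.5e-29). Neither here nor under ETH, where DSC2 went from 2.81 and 2.18 to 8.06 and 7.85 TPM, did the groups overlap (1.64, SE 0.16, adjusted p 3.6e-23).

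DSG3, already higher in TAM, rose further. Its level went from 19.7 and 17.4 TPM in Ctrli TAM to 43.8 and 42.4 TPM in YAPi TAM (1.20, SE 0.11, adjusted p 1.8e-26). Under ETH it went from 13.0 and 11.9 to 28.5 and 28.3 TPM (1.16, SE 0.12, adjusted p 2.1e-20). In both states every YAPi library was above every Ctrli library. DSC3, the desmocollin of basal layers, rose under ETH from 6.04 and 5.28 to 9.15 and 7.74 TPM (0.68, SE 0.14, adjusted p 3.1e-05). Without either Ctrli ETH library or without YAPi ETH replicate 1 that call was lost (0.66 to 0.70, adjusted p from 0.013 to 0.063). Under TAM the DSC3 groups overlapped at 6.64 and 5.30 against 5.27 and 5.99 TPM (0.03, 95% interval -0.30 to 0.37). DSG2 was not called, with 13.95 and 12.2 TPM in Ctrli TAM and 13.4 and 12.8 TPM in YAPi TAM (-0.01, interval -0.24 to 0.22).

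Of the proteins inside the cell, DSP and JUP rose in both states. DSP, the keratin anchor, went from 22.3 and 19.8 to 44.2 and 40.4 TPM under ETH (0.98, SE 0.10, adjusted p 1e-20). Under TAM it went from 26.1 and 18.6 to 35.9 and 36.2 TPM (0.66, SE 0.14, adjusted p 4.1e-05). The groups did not overlap, but the TAM call was lost with edgeR (adjusted p 0.02), without Ctrli replicate 2 (0.50, adjusted p 0.041) and without YAPi replicate 2 (0.59, adjusted p 0.021). JUP, which joins both desmosomes and adherens junctions, rose from 11.9 and 12.3 to 23.4 and 25.7 TPM under TAM (1.04, SE 0.15, adjusted p 1.3e-10). Under ETH its levels of 16.1 and 15.3 TPM became 24.1 and 29.2 TPM (0.95, SE 0.16, adjusted p 1.5e-07).

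Of the plakophilins PKP2 was lower in YAPi, at 2.76 and 2.43 TPM against 5.30 and 4.73 TPM under TAM (-0.69, SE 0.21, adjusted p 0.0081) and at 6.54 and 5.21 against 10.5 and 9.07 TPM under ETH (-0.70, SE 0.16, adjusted p 0.00015). The groups did not overlap, yet leaving out any 1 library ended either call (-0.76 to -0.59), and under TAM so did TMM size factors (adjusted p 0.013). PKP3 was not called in either state (0.14 under TAM and 0.08 under ETH). PKP1 was at 0 counts in every Ctrli library and at 6 and 12 counts in YAPi TAM and 3 and 13 in YAPi ETH. These counts were too few for an adjusted p.

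PERP had the smallest p-values of the members. It stood at 24.8 and 25.1 TPM in Ctrli TAM and 89.5 and 94.5 TPM in YAPi TAM, which was 3.64-fold higher in counts (1.87, SE 0.12, adjusted p 1.7e-54). Under ETH it went from 29.6 and 27.4 to 108 and 106 TPM (1.89, SE 0.11, adjusted p 1.3e-64). The 4 YAPi libraries held the highest PERP levels of all 20 ER-Src libraries.

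Among fibroblast markers, DCN alone was called higher in YAPi, under both treatments. The summed level of 4 fibroblast markers was 68.5 and 66.7 TPM in Ctrli TAM and 262 and 205 TPM in YAPi TAM. Of the 2 markers tested DCN, a proteoglycan of connective tissue, passed the test (2.15, SE 0.11, adjusted p 1.4e-75), and the collagen gene COL1A2 was listed at 0 in the controls. Under ETH the sum was 61.8 and 59.0 TPM in Ctrli and 182 and 148 TPM in YAPi, with DCN 1.87 higher (adjusted p 5.2e-52). Their part in the desmosome result was not tested. In a bulk sample, fewer cells of a type and less RNA per cell cannot be told apart.

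**Figure D2:**
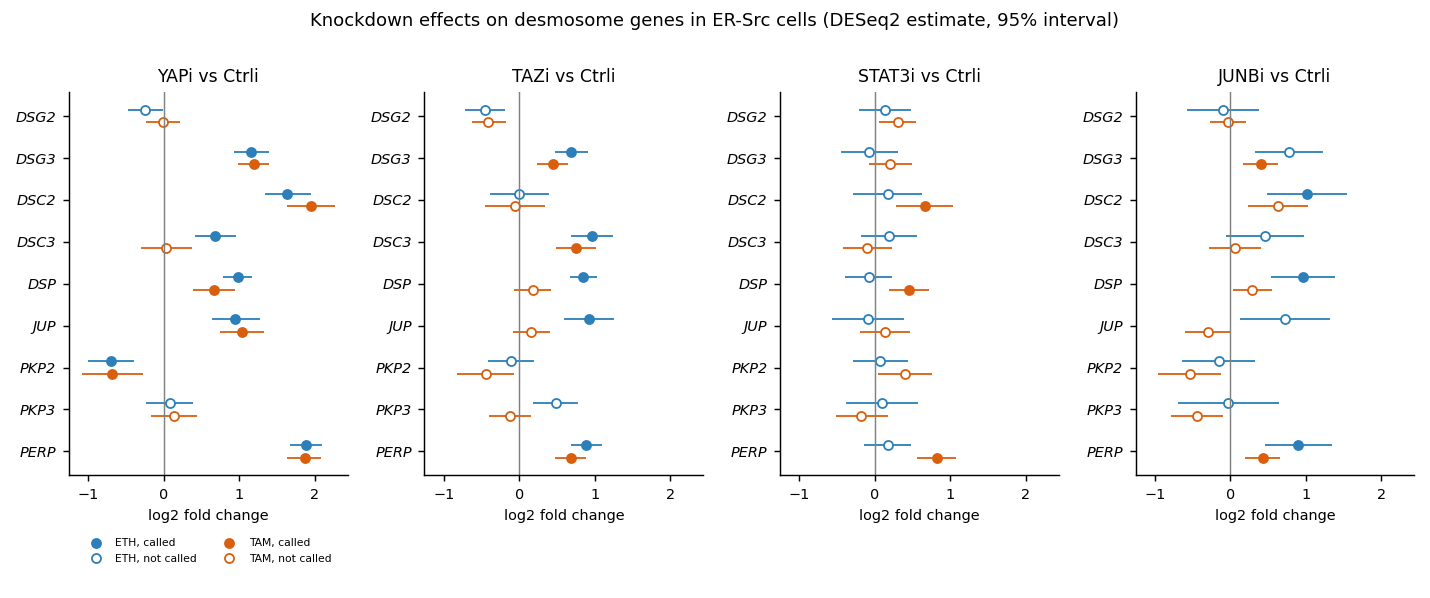
DESeq2 log2 fold changes (horizontal axis) of 9 desmosome genes for each knockdown against Ctrli in ER-Src cells, with 95% intervals. Blue is ETH and orange TAM, and filled points were called at an adjusted p under 0.01. PERP, DSC2, DSG3, DSP and JUP are filled on the right for YAPi in both treatments, and PKP2 on the left.

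Depletion of TAZ raised a smaller number of members under TAM. WWTR1, the gene for TAZ, fell by 2.22 under TAM and fell by 1.86 under ETH. Under TAM 3 of 9 members tested were called, all higher, against 3.53% of all genes called and 1.79% called higher. Under ETH 5 of 9 were called, all higher, against 5.53% and 2.75%.

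DSC3 stood out among the cadherins. It went from 6.64 and 5.30 to 10.2 and 11.6 TPM under TAM (0.75, SE 0.14, adjusted p 7e-06) and from 6.04 and 5.28 to 11.9 and 11.4 TPM under ETH (0.96, SE 0.14, adjusted p 2.2e-09). The groups did not overlap. The TAM call was lost without Ctrli replicate 2 (0.66) or either TAZi library (0.79 and 0.72). DSG3 rose to 21.8 and 22.2 TPM under ETH (0.69, SE 0.11, adjusted p 1.3e-07), a call that was lost without Ctrli ETH replicate 1 (0.63, adjusted p 0.038). Under TAM DSG3 reached 25.9 and 29.9 TPM (0.44, SE 0.10, adjusted p 0.0008), which was lost with edgeR (adjusted p 0.026) and without any 1 of the 4 libraries (0.38 to 0.50). DSC2 had estimates of -0.06 under TAM and 0.00 under ETH, and its groups overlapped in both.

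DSP and JUP were called in TAZi under ETH alone. DSP went from 22.3 and 19.8 to 41.4 and 41.7 TPM (0.85, SE 0.09, adjusted p 7.3e-17), and JUP from 16.1 and 15.3 to 22.8 and 33.5 TPM (0.92, SE 0.17, adjusted p 4.2e-06). The JUP call was lost with edgeR (adjusted p 0.01) and without Ctrli ETH replicate 1 (0.83) or TAZi ETH replicate 2 (0.62). Under TAM, DSP was at 26.4 and 29.5 TPM against 26.1 and 18.6 TPM in Ctrli (0.18, interval -0.07 to 0.42), and JUP at 14.03 and 15.4 against 11.9 and 12.3 TPM (0.16, interval -0.09 to 0.41). PERP rose in both states, to 40.4 and 48.0 TPM under TAM (0.68, SE 0.10, adjusted p 1e-08) and to 55.1 and 60.5 TPM under ETH (0.89, SE 0.11, adjusted p 1.7e-14). The PERP groups did not overlap, and the TAM call was lost with edgeR (adjusted p 0.01) and without TAZi replicate 2 (0.60, adjusted p 0.015). DSG2 was 0.41 lower under TAM and 0.45 lower under ETH without passing the threshold (adjusted p 0.013 in both). Under TAM it did so when genes with a mean count below 10 were dropped (-0.41, adjusted p 0.0097). The fibroblast marker sum was 207 and 214 TPM in TAZi TAM and 157 and 139 TPM in TAZi ETH, above both Ctrli groups. Its part was not tested.

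The effects of YAPi and TAZi were compared directly, a comparison added after the data had been seen. Under TAM 7 of the 9 members tested differed, against 6.32% of all genes tested, with 6 higher in YAPi against 3.64% and 1 lower against 2.68%. Under ETH 3 differed, against 4.16%, all higher in YAPi against 2.07%. DSC2 differed most, at 8.20 and 8.23 TPM in YAPi TAM and 2.14 and 2.33 TPM in TAZi TAM (2.01, SE 0.14, adjusted p 5.6e-41), and by 1.65 under ETH (SE 0.17, adjusted p 2.2e-19). PERP was higher in YAPi by 1.19 under TAM (adjusted p 2.3e-25) and 1.01 under ETH (adjusted p 1e-14).

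DSG3 was higher in YAPi too, by 0.76 under TAM (adjusted p 4.5e-13) and by 0.49 under ETH (adjusted p 0.0037), where the call was lost with edgeR (adjusted p 0.042) and in every fit that left out a library (0.41 to 0.58). JUP (0.89, adjusted p 2.4e-09) and DSP (0.49, adjusted p 1.1e-05) differed under TAM, and under ETH their intervals were -0.34 to 0.42 and -0.08 to 0.35. The DSP difference under TAM was lost with edgeR (adjusted p 0.018) and without YAPi replicate 2 (0.41) or either TAZi library (0.44 and 0.53). DSC3 went the other way under TAM, at 5.27 and 5.99 TPM in YAPi and 10.2 and 11.6 TPM in TAZi (-0.71, SE 0.14, adjusted p 1.6e-05), and was lost with edgeR (adjusted p 0.012) and without YAPi replicate 1 (-0.57) or either TAZi library (-0.76 and -0.67). DSG2 was 0.39 higher in YAPi under TAM (adjusted p 0.0064), a call that edgeR (adjusted p 0.04) and every fit leaving out a library lost (0.32 to 0.46).

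**Figure D3:**
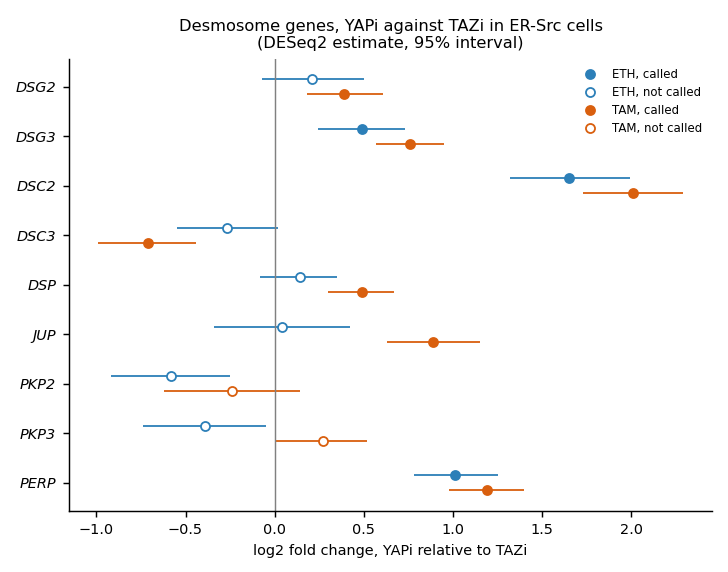
DESeq2 log2 fold changes of YAPi relative to TAZi (horizontal axis) for 9 desmosome genes in ER-Src cells, with 95% intervals, blue ETH and orange TAM, filled where called. DSC2 lies farthest right at 2.01 under TAM, and DSC3 lies left of 0 at -0.71.

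STAT3 and JUNB depletion touched fewer members than YAP depletion did. In STAT3i TAM cells, where STAT3 fell by 2.66 and JUNB fell by 2.41, 3 of 9 members were called, all higher, against 8.09% of all genes tested and 3.29% called higher. PERP rose from 24.8 and 25.1 to 59.9 and 49.1 TPM (0.82, SE 0.13, adjusted p 2.5e-08), and this call held in all alternatives run. DSC2 rose from 2.20 and 2.02 to 4.16 and 4.10 TPM (0.66, SE 0.19, adjusted p 0.0088) and DSP from 26.1 and 18.6 to 35.9 and 38.4 TPM (0.45, SE 0.14, adjusted p 0.0095). The groups of all 3 genes were separate. DSC2 and DSP were lost with a mean count of at least 10 and with effective length offsets (adjusted p from 0.01 to 0.062). DSC2 was also lost without any 1 library (0.61 to 0.76), and DSP with edgeR (adjusted p 0.053) and without Ctrli replicate 2 (0.30) or either STAT3i library (0.51 and 0.43). The leukocyte marker CD14 fell by 1.23 in STAT3i TAM (adjusted p 1.9e-05), with PTPRC and CD3E at or near 0, and its part was not tested. Under ETH, STAT3 fell by 1.88 and no member was called by DESeq2, where 0.201% of all genes tested were called. Of the members, 0 had an unadjusted p under 0.05. There edgeR called 0 of all 14520 genes it tested, so its result cannot tell the members from other genes.

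In JUNBi TAM cells JUNB fell by 2.03, and 2 of 9 members were called, both higher, against 6.71% of all genes and 2.77% called higher. DSG3 went from 19.7 and 17.4 to 33.0 and 24.4 TPM (0.40, SE 0.12, adjusted p 0.009) and PERP from 24.8 and 25.1 to 46.0 and 32.8 TPM (0.43, SE 0.12, adjusted p 0.0062). The groups did not overlap, but both calls were lost with edgeR (adjusted p 0.044 and 0.039), with a mean count of at least 10 (0.02 and 0.015), with effective length offsets (0.021 and 0.017) and without any 1 library (0.35 to 0.51). DCN fell by 0.52 in JUNBi TAM (adjusted p 0.0032), and its part was not tested. JUNB itself was not called in JUNBi ETH (-1.16, adjusted p 0.064). There 3 of 9 members were called, all higher, against 2.76% and 1.17%: DSC2 (1.01, SE 0.27, adjusted p 0.0064), DSP (0.96, SE 0.21, adjusted p 0.00053) and PERP (0.90, SE 0.22, adjusted p 0.0027).

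Replicates of JUNBi ETH lay far apart. DSC2 read 6.77 and 4.44 TPM, DSP 54.9 and 40.0, PERP 73.6 and 50.5 and PKP3 17.1 and 32.7 TPM. All 3 calls were lost with edgeR (adjusted p 0.073 to 0.096), which called 1 of 14895 genes in this comparison. They were also lost without either Ctrli ETH library, and DSC2 also without JUNBi replicate 1 (0.85). With JUNBi replicate 2 left out, more members were called, and so were more of all genes tested. DSG3 was not called in JUNBi ETH (0.78, adjusted p 0.018), but was called with effective length offsets (0.92) and without either JUNBi library (0.65 and 0.90). With the default settings, DSG2 and PKP3 were called in none of the 8 comparisons of a knockdown with Ctrli in ER-Src cells. Of the alternatives that kept every library, only the DSG2 one given for TAZi called either gene. Fits that left out a library are not covered by this statement.

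The difference between TAM and ETH was tested for each knockdown. Only DSP in TAZi was called (-0.69, SE 0.15, adjusted p 0.00072), from 0.85 under ETH and 0.18 under TAM. In that test 1 of 8 members passed, beside 1.64% of the 4328 genes that received an adjusted p and 1.29% called lower. The call was lost with edgeR (-0.70, adjusted p 0.14), which called 5 of 15350 genes in this test. It was also lost without either Ctrli ETH library (-0.67 and -0.72), either TAZi TAM library (-0.66 and -0.73) or TAZi ETH replicate 2 (-0.71). JUP differed by -0.79 (adjusted p 0.019). For YAPi, STAT3i and JUNBi no member was called by DESeq2 or edgeR, beside 0.496%, 1.4% and 0.287% of genes called by DESeq2. With edgeR, 15 of 15533 genes were called for YAPi and 56 of 15313 for STAT3i. In DESeq2, 2, 2 and 3 members had an unadjusted p under 0.05. For YAPi the intervals of the difference were -0.12 to 0.71 for DSC2, -0.27 to 0.31 for DSG3 and -0.34 to 0.26 for PERP. DSC3 differed by -0.66 (adjusted p 0.12).

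MDA-MB-231 cells lacked the basal cadherins. In the set 1 and set 2 controls DSG3, DSC3 and PKP1 had 0 counts. In set 1 controls JUP (45.4 ± 2.2 TPM), DSG2 (44.4 ± 0.50 TPM) and PERP (43.9 and 44.1 TPM) overlapped at the top, followed by DSP (24.3 ± 0.71 TPM). PKP3 (18.9 ± 1.4 TPM) and PKP2 (16.1 ± 2.6 TPM) overlapped, and DSC2 was lowest of those detected at 3.96 ± 0.18 TPM. Set 2 controls of the same line had PKP3 at 20.3 ± 6.3 and JUP at 15.0 ± 2.2 TPM, which overlapped, then PERP at 8.05 ± 0.19, DSG2 at 5.30 ± 0.15, DSP at 2.96 ± 0.45, PKP2 at 0.91 ± 0.20 and DSC2 at 0.57 ± 0.085 TPM. The sets were not compared by a test.

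YAP1 fell by 2.63 in YAPi of set 1 and fell by 2.65 in YAPi_TAZi, WWTR1 fell by 4.90 in TAZi and fell by 3.70 in YAPi_TAZi, and TEAD1 to TEAD4 changed by -0.82 to -6.34 in TEADi. Against the set 1 controls, members were called lower in every knockdown and none was called higher. The counts were 4 of 7 tested for YAPi, 6 of 8 for TAZi, 5 of 8 for YAPi_TAZi and 4 of 8 for TEADi, where 24.1%, 32.3%, 35.5% and 28.1% of all genes were called and 11.9%, 16.6%, 18.2% and 14.4% were called lower. JUP was at 47.0 and 43.9 TPM in the controls and between 2.46 and 6.41 TPM in the 8 knockdown libraries. Its counts changed by -2.27 in YAPi (adjusted p 9.4e-14), -2.39 in TAZi (1.8e-26), -1.65 in YAPi_TAZi (1.3e-18) and -1.74 in TEADi (8.4e-12).

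PKP2 was at 17.95 and 14.3 TPM in the controls and between 0.22 and 2.33 TPM in the knockdowns. Its changes were -1.67 (adjusted p 7.6e-05), -2.20 (6.7e-12), -3.54 (2.7e-12) and -3.96 (1.5e-09) in the same order. DSG2 changed by -0.59 to -1.10 and DSP by -0.44 to -0.57, all called. PERP was called in TAZi (-0.81, adjusted p 1e-10) and YAPi_TAZi (-0.45, adjusted p 0.00041), and PKP3 in TAZi (-0.81, adjusted p 0.0049). TPM fell further than counts. For PERP, 43.9 and 44.1 TPM in the controls stood against 6.03 to 15.4 TPM in the knockdowns.

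When each set 1 knockdown was compared with the other set 1 knockdowns, no member that received an adjusted p was called in any of the 4. PKP2 received none in all 4, nor did JUP in YAPi. A decrease common to the 4 knockdowns would not show in this comparison. With the controls of both sets as reference, JUP alone was called in each. Under that reference DSP changed sign in all 4 knockdowns (0.20 to 0.31). DSG2 changed sign in YAPi and TEADi (0.15 and 0.11), and PERP in YAPi, YAPi_TAZi and TEADi (0.12 to 0.13). Beside the range of the 8 set 1 knockdown libraries, the set 2 controls lay within it for PKP2 (0.77 and 1.05 TPM) and PERP (8.19 and 7.92 TPM), above it for JUP (16.6 and 13.5 TPM) and PKP3 (15.9 and 24.8 TPM), and below it for DSG2 (5.41 and 5.20 TPM), DSP (3.28 and 2.64 TPM) and DSC2 (0.63 and 0.51 TPM). Leaving out either control removed the DSP call in all 4 comparisons, the DSG2 call in YAPi and TEADi, the PKP2 call in YAPi, the PERP call in TAZi and YAPi_TAZi and the PKP3 call in TAZi. PKP2 in TAZi was lost without Ctrli replicate 1 (-2.17, adjusted p 0.013). Leaving out a knockdown library ended the DSP call without YAPi replicate 2 (-0.61), YAPi_TAZi replicate 1 (-0.32) or TEADi replicate 1 (-0.44), the PERP call without YAPi_TAZi replicate 1 (-0.44) and the PKP3 call without either TAZi library (-1.02 and -0.64). PERP in TEADi was not called (-0.44, adjusted p 0.026). It was called with edgeR (adjusted p 0.0071), TMM size factors (adjusted p 0.0036) and effective length offsets (adjusted p 0.0095). PERP in YAPi was not called (-0.45, adjusted p 0.036), but was with TMM size factors (-0.56, adjusted p 0.0059).

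A few reads of basal genes appeared in set 1 knockdowns. Replicate 1 of the 4 knockdowns held 1, 2, 2 and 4 counts of DSG3 and 30.1 to 37.5 counts of KRT5, while replicate 2 of each and both controls held 0 of either gene. The source of these reads was not tested.

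In set 2, where JUNB fell by 2.04 in JUNBi, no member was called by DESeq2 or by edgeR. For JUNBi, 5 members were tested and 1 had an unadjusted p under 0.05, where 3.99% of all genes were called. That member was DSG2, at 5.41 and 5.20 TPM in Ctrli and 3.30 and 4.12 TPM in JUNBi (-0.82, SE 0.30, adjusted p 0.06). For STAT3i only JUP and PERP received an adjusted p, 0 had an unadjusted p under 0.05, and 0.237% of all genes were called. PERP was at 8.19 and 7.92 TPM in Ctrli and 13.4 and 10.3 TPM in STAT3i (0.40, interval -0.14 to 0.95), without overlap. JUP moved by -0.50 in JUNBi (adjusted p 0.21) and -0.23 in STAT3i (adjusted p 0.8).

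**Figure D4:**
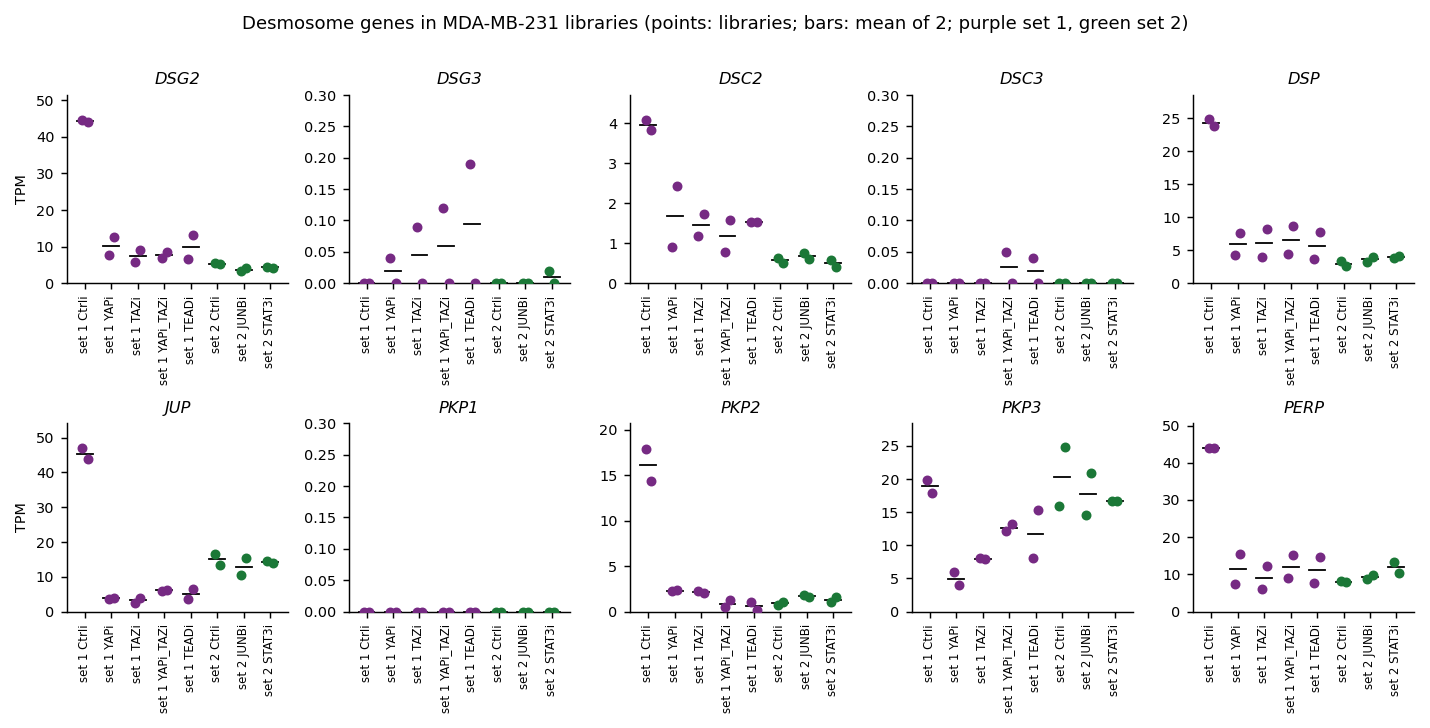
TPM (vertical axis, linear, from 0) of each desmosome gene in the 16 MDA-MB-231 libraries, purple set 1 and green set 2. Points are libraries and black bars the mean of 2. DSG2, DSP, PKP2 and PERP are far higher in the set 1 controls than in any other group, and DSG3, DSC3 and PKP1 lie at or near 0.

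Genes that work beside desmosomes were counted in the same way. Among 9 other desmosome-linked genes, the plakin periplakin (PPL), which binds keratins at the cell edge, fell by 1.55 with transformation (SE 0.18, adjusted p 1.6e-15). It rose by 1.75 in YAPi TAM, 1.35 in STAT3i TAM and 1.51 in JUNBi TAM. With transformation 1 of 6 tested genes of this list was called, beside 6.11% of all genes. In YAPi TAM 2 of 6 were higher and 1 was lower, beside 5.4% and 5.54%. STAT3i TAM and JUNBi TAM each had 1 of 5 higher, beside 3.29% and 2.77%, and 0 lower. In YAPi ETH 0 of 7 were higher and 1 was lower, beside 5.03% and 6.36%. Of 13 keratins, all tested, 5 rose and 3 fell in YAPi TAM, where 5.4% of all genes tested were called higher and 5.54% lower. KRT16 (2.68, adjusted p 4.6e-98) and KRT6B, keratins of activated epidermis, rose, and KRT14, the partner of KRT5 in basal cells, fell by 1.55.

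Adherens junctions hold the same cell borders. In YAPi TAM 3 of 10 tested adherens junction genes were higher, beside the 5.4% over all genes, and none was lower. Among them was CDH1, which encodes E-cadherin (1.58, SE 0.17, adjusted p 4.9e-19). In JUNBi TAM 1 of 10 was higher, again CDH1 (0.88, adjusted p 2.6e-05), and 2 were lower. There 370 and 528 of 13375 genes tested were called higher and lower. In STAT3i TAM 1 of 10 was higher and 4 were lower, where 3.29% and 4.8% of all genes were called higher and lower, including the P-cadherin gene CDH3 (-1.08, adjusted p 2.1e-17). Of the epithelial transcription factors tested in YAPi TAM, 6 of 11 were higher, beside 5.4% of all genes, and none was lower (list median 1.86, beside 0.01 over all genes), led by EHF (3.49, SE 0.28), ELF3 (2.13) and GRHL3 (1.86). In YAPi ETH 8 of 11 were higher, beside 5.03%. In TAZi TAM 2 of 9 were higher, beside 1.79%, namely ELF3 (2.64) and EHF (2.04). In STAT3i TAM 1 of 9 was higher and 3 were lower, beside 3.29% and 4.8%. In JUNBi TAM 3 of 9 were higher and 2 were lower, where 370 and 528 of 13375 genes tested were called higher and lower.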

How the data were processed

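RNA was sequenced from 36 libraries, and groups were read from the sample titles. According to the study's methods, libraries were made from total RNA with the TruSeq Ribo Profile kit, and reads were trimmed, aligned with STAR to GENCODE transcripts (hg38) and quantified with RSEM, which divides reads that map to more than 1 gene. The authors deposited RSEM expected counts (estimated counts, not normalized) for each library, and the same deposited tables hold TPM, effective length and length in bases per gene.

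Names and coordinates came from GENCODE version 44 (GRCh38). Rows that named no Ensembl gene (at most 0.109% of counts) were left out, and the expected counts then were rounded to integers. Each comparison was a separate DESeq2 run (1.42.0, R 4.3.3) over all genes with default settings, as in the study, and a gene was called at an adjusted p (Benjamini-Hochberg) below 0.01. Log2 fold changes are unshrunken, intervals are 95%, and TPM are mean ± SD. A gene named as not tested had no adjusted p. Knockdown by treatment was tested as an interaction term. Alternatives were edgeR's quasi-likelihood test (4.0.16), TMM size factors, a mean count of at least 10, effective length offsets, the replicate number as a block, other set 1 knockdowns or the controls of both sets as reference, and leaving out each library. Depth ran from 1411304 to 19161700 counts per library. A gene not called cannot be taken as unchanged. All 10 members are described. From other lists at most 3 genes were named, those called with the largest change whose normalized counts averaged at least 100. The members and lists were chosen with earlier results of these data known. The scripts were tested on simulated data.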

Additional observations from a re-analysis of the deposited data

Results flagged for a closer look

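The effect of TAZi on DSP, the gene for desmoplakin, differed between TAM and ETH by a test of the difference itself. The interaction was -0.69 on the log2 scale (SE 0.15, DESeq2 adjusted p 0.00072), with effects of 0.85 under ETH and 0.18 under TAM. Both TAZi ETH libraries lay above both Ctrli ETH libraries, and under TAM the normalized counts of TAZi and Ctrli overlapped. It was not called with edgeR (-0.70, adjusted p 0.14), which called 5 of 15350 genes in this test.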

How the results depend on the processing

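Of 61 member changes called over the 21 comparisons, 21 were called under every alternative that gave a value and 26 under all that kept every library. The number of members called moved by over 1.5 times as follows. With edgeR it became 1 for TAZi TAM and 0 for JUNBi TAM. It became 0 for JUNBi ETH and the TAZi interaction, where edgeR called 1 of 14895 and 5 of 15350 genes. For YAPi against TAZi under TAM it became 4. With a mean count of at least 10 it became 1 for STAT3i TAM, 0 for JUNBi TAM and 3 for YAPi_TAZi in set 1, and with effective length offsets 1 for STAT3i TAM and 0 for JUNBi TAM. With the replicate number as a block it became 1 for STAT3i TAM, 0 for JUNBi TAM, 2 for the TAZi interaction and, in set 1, 2 for YAPi, 3 for YAPi_TAZi and 2 for TEADi. The labels give no shared batch and the same-numbered libraries correlated weakly (r from -0.0426 to 0.303), so the numbers were not taken as pairs. In set 1 each knockdown was correlated with the controls only. There r cannot tell whether the knockdown replicates of the same number shared a batch. With the block, calls were lost for PKP2 in YAPi TAM (adjusted p 0.12), DSG3 in TAZi TAM (0.034), DSC2 and DSP in STAT3i TAM (0.092 and 0.029), DSG3 and PERP in JUNBi TAM (0.015 and 0.014), DSG2 in YAPi against TAZi under TAM (0.043) and, in set 1, DSG2 and DSP in YAPi (0.018 and 0.045), DSP and PKP3 in TAZi (0.062 and 0.21), DSP and PERP in YAPi_TAZi (0.032 and 0.024) and DSG2 and DSP in TEADi (0.011 and 0.06). Calls were gained for DSG3 in JUNBi ETH (0.0028) and JUP in the TAZi interaction (0.0089). For the 2 comparisons of set 2 alone, no paired analysis was possible because their groups share fewer than 2 replicate numbers. Against the other set 1 knockdowns with the block 0 members were called in all 4 comparisons (PKP2, and JUP in YAPi, had no adjusted p), and with the controls of both sets 1 in each. Single estimates changed sign under these 2 references for DSG2 (0.31 and 0.15 in YAPi, 0.27 and 0.11 in TEADi), PERP (0.09 and 0.12 in YAPi, 0.11 and 0.12 in YAPi_TAZi, 0.13 in both for TEADi) and DSP (0.03 and 0.26 in TAZi, 0.08 and 0.31 in YAPi_TAZi), under the first alone for JUP (0.47 in YAPi_TAZi, 0.35 in TEADi), and under the second alone for DSP (0.20 in YAPi, 0.22 in TEADi). PKP3 in TAZi of set 1 became 0.18 with effective length offsets. The cause was not tested. Leaving out 1 library gave 1 to 1 members for Ctrli TAM against ETH, 0 to 2 for TAZi TAM, 1 to 2 for STAT3i TAM, 0 to 0 for JUNBi TAM, 3 to 6 for TAZi ETH, 0 to 6 for JUNBi ETH, 0 to 3, 0 to 1 and 0 to 2 for the TAZi, STAT3i and JUNBi interactions, 4 to 5 for YAPi against TAZi under TAM, and 1 to 4, 2 to 5, 3 to 5 and 2 to 5 for YAPi, TAZi, YAPi_TAZi and TEADi in set 1. With 1 library left in a group its spread is assumed to equal that of the other. Of the single-gene values under alternatives 466 kept direction and call, 158 fell below the threshold, 14 passed it and 19 reversed. Depth in the set 1 knockdowns, at most 2784605 counts, limits what can be seen of low genes such as DSC2.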

Other observations

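Some partners of desmosomes answered differently in the transformed and the non-transformed state, by DESeq2 interaction tests over all genes. The effect of YAPi on PPL, the plakin gene, was higher under TAM than under ETH by 1.31 on the log2 scale (SE 0.21, adjusted p 5.7e-07), and that of STAT3i by 1.58 (SE 0.25, adjusted p 1e-07). KRT14 rose in TAZi under ETH (1.54, adjusted p 2.1e-33), and its TAZi effect was lower under TAM by -1.45 (SE 0.16, adjusted p 3.4e-17). KRT6B fell by 2.18 in STAT3i TAM, with an interaction of -1.89 (SE 0.29, adjusted p 2.2e-08). These keratin and plakin estimates share the Ctrli libraries of their treatment.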
